A study of Mus musculus with 9 samples.

Results

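The 31 genes described here are those that encode antibodies and their joining chain. They are every gene whose annotated biotype begins with IG_ and that had a count in at least 1 of 9 colon libraries, which gave 30 genes, plus Jchain, out of 22262 genes with a count in any library. The libraries came from wild-type female C57BL/6N mice aged 12 months, of which 4 were kept in a standard environment (WT_SE mice 1, 2, 3 and 5) and 5 in an enriched environment (WT_EE mice 1 to 5). WT_SE mice lived 3 to 4 in a standard cage, while WT_EE mice lived 8 in a larger cage with running wheels and other objects, so the number of cage mates and the enrichment cannot be told apart. RNA was taken from a rinsed piece of upper colon, wall included, and sequenced next to the poly(A) tail with unique molecular identifiers, random tags that let each molecule be counted once. As each transcript is read at its end, counts do not grow with transcript length and were compared between genes as they stand. A limit to this at high and low counts is given below. In bulk tissue of this kind, fewer plasma cells and less antibody RNA per cell cannot be told apart.

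An antibody is built of heavy and light chains, each with a variable part that binds the antigen and a constant part that is shared by all antibodies of a class. The heavy chain constant gene in use (Ighm, Ighd, Ighg, Ighe or Igha) sets the class, or isotype, and the light chain is either kappa (Igkc) or lambda (Iglc). In the gut wall, plasma cells secrete mostly dimeric IgA, whose monomers are held together by the J chain (Jchain), and the polymeric immunoglobulin receptor of the epithelium (Pigr) carries this IgA, and pentameric IgM, into the lumen. Naive B cells, which sit in lymphoid follicles, carry IgM and IgD on their surface.

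The coding ends of the heavy chain genes differ between the classes that bind the J chain and those that do not. Below are the last 60 coding bases of the secreted form on GRCm38, from GENCODE transcripts, 5′ to 3′, all on the minus strand of chromosome 12. Capitals mark the penultimate codon where it encodes cysteine, the residue of the IgA and IgM tail that bonds to the J chain. Igha and Ighm have it, and the IgG genes, shown for contrast, do not.
Igha (Igha-201, chr12:113258771-113258830): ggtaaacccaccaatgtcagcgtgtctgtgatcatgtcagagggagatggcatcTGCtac
Ighm (Ighm-201, chr12:113420870-113420929): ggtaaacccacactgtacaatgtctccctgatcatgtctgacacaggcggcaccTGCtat
Ighg2b (Ighg2b-201, chr12:113306392-113306451): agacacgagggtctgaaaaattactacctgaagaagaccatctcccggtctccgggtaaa
Ighg2c (Ighg2c-202, chr12:113287392-113287451): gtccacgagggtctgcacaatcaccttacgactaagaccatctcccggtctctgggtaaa

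The lambda constant genes show how far counts can be assigned to 1 gene of the family. Their last 120 coding bases follow, on the minus strand of chromosome 16, with capitals for each base that differs from Iglc2.
Iglc2 (Iglc2-202, chr16:19198539-19198658): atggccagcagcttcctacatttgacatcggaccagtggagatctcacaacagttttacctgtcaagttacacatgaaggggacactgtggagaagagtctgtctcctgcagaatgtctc
Iglc3 (Iglc3-201, chr16:19065368-19065487): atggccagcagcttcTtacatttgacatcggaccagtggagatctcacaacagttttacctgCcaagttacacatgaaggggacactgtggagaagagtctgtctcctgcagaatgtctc
Iglc1 (Iglc1-201, chr16:19061755-19061874): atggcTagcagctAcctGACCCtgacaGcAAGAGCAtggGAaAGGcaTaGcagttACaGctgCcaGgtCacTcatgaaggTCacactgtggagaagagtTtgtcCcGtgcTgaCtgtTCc
Iglc3 differed from Iglc2 at 2 of these bases and Iglc1 at 38. Over 314 aligned coding bases, Iglc2 and Iglc3 were 96.5% identical, and the longest run their transcripts shared was 79 bases, against 19 bases for Iglc1 and Iglc2. Ighg2b and Ighg2c were 85.9% identical over 1004 aligned bases and shared a run of up to 78 bases. Whether reads that fit both genes of a pair were counted is not given in the sources used here, so the split of Iglc2 from Iglc3 and of Ighg2b from Ighg2c is uncertain.

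Nearly all antibody counts fell on constant genes. Constant genes held 3726 of the 3767 immunoglobulin counts (98.9%), with 35 counts on variable genes and 6 on joining genes, and Jchain added 1027. Of the genes annotated with each biotype, 12 of 13 constant, 14 of 218 variable and 4 of 14 joining genes had a count, whereas no gene of another IG_ biotype (diversity genes and pseudogenes among them) did. Igkc, Igha and Jchain alone held 75.8% of the 4794 counts on the 31 genes, and 7 genes had a count in all 9 libraries. At the other end, 16 genes had 1 or 2 counts in all.

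Library totals ranged from 295535 to 454043 counts, so that 3 counts, taken as the lowest detectable level (the floor), came to 6.61 to 10.2 CPM (counts scaled to a common library total). The 31 genes together took 0.135% ± 0.0142 (SD, n = 4) of all counts in WT_SE and 0.147% ± 0.0120 (SD, n = 5) in WT_EE. Single libraries held 0.128%, 0.153%, 0.120% and 0.141% in WT_SE mice 1, 2, 3 and 5, and 0.167%, 0.143%, 0.143%, 0.143% and 0.137% in WT_EE mice 1 to 5. The groups overlapped, WT_EE mouse 1 was the highest (95% Wilson interval 0.156% to 0.180%) and WT_SE mouse 3 the lowest (0.109% to 0.133%). These intervals cover counting error only. No test was run on the total, since it is a sum over chosen genes.

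Igha encodes the heavy chain of IgA, the class secreted onto the gut surface, (chromosome 12, minus strand, GRCm38, 113254830 to 113260236). It was normalised to 339, 356, 371 and 336 CPM in WT_SE mice 1, 2, 3 and 5, and to 457, 393, 323, 422 and 291 CPM in WT_EE mice 1 to 5, from 110 to 211 counts per library. The 4 WT_SE libraries were close to each other, and the WT_EE libraries lay on both sides of them. The means were 350 ± 16.6 CPM (SD, n = 4) and 377 ± 68.9 CPM (SD, n = 5), a log2 fold change of 0.10 with a standard error of 0.14 (edgeR, adjusted p = 0.915, 95% interval -0.17 to 0.38).

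Igkc, the only kappa constant gene (chromosome 6, plus strand, 70726435 to 70726966), was the most counted of the 31 genes and ranked 47 among all 22262 genes by mean count. It had 136, 154, 119 and 140 counts in the WT_SE libraries, and 229, 118, 175, 132 and 178 counts in the WT_EE libraries, in the order above. The normalised means were 391 ± 31.1 CPM (SD, n = 4) and 421 ± 44.1 CPM (SD, n = 5). Ranges overlapped and the log2 fold change was 0.11 with a standard error of 0.13 (edgeR, adjusted p = 0.900, 95% interval -0.15 to 0.36). A noncoding gene on the same strand, Gm30211, overlaps Igkc and had 5 counts in all.

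Jchain, whose product links IgA and IgM monomers (chromosome 5, minus strand, 88519809 to 88527891), had 111, 115, 73 and 135 counts in WT_SE and 153, 99, 112, 106 and 123 counts in WT_EE. Its normalised means were nearly equal, 306 ± 51.3 CPM (SD, n = 4) and 306 ± 41.9 CPM (SD, n = 5), with a log2 fold change of -0.01 and a standard error of 0.14 (edgeR, adjusted p = 0.992, 95% interval -0.29 to 0.27). Jchain made up 22.5% ± 2.53 of the counts on the 31 genes in WT_SE and 20.9% ± 2.17 in WT_EE. Pigr, which is no antibody gene but transports the finished polymer, ranged over 128 to 199 counts among WT_SE libraries and 136 to 215 among WT_EE ones. Its log2 fold change was 0.01 with a standard error of 0.13 (edgeR, adjusted p = 0.992, 95% interval -0.24 to 0.27).

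**Figure D1:**
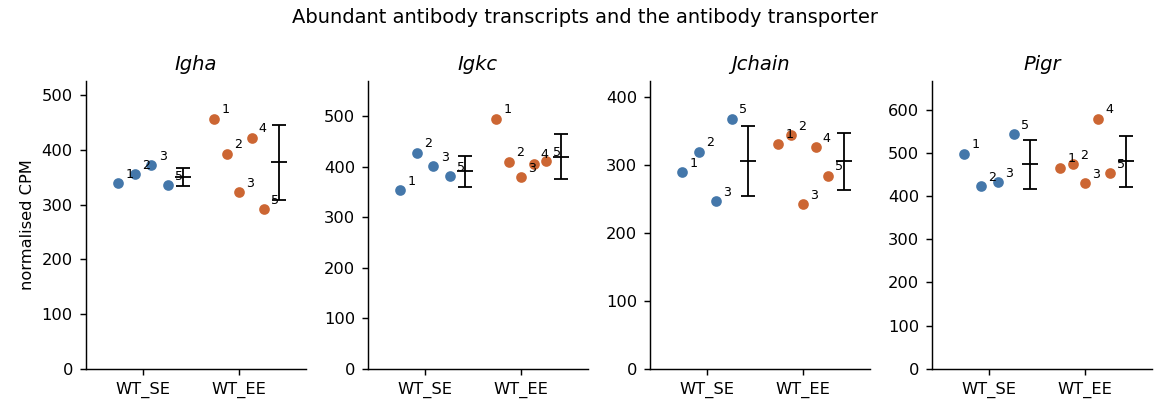
Normalised CPM (y axis, from 0) of Igha, Igkc, Jchain and Pigr in each library, numbered by mouse, with the group mean and SD at the right of the points. In all 4 panels the 4 WT_SE and 5 WT_EE libraries overlap, and WT_EE mouse 1 is highest for Igha and Igkc.

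The ratios of Igkc and Jchain to Igha differed between mice. Igkc over Igha ran from 0.96 in WT_EE mouse 4 to 1.41 in WT_EE mouse 5, and Jchain over Igha from 0.66 in WT_SE mouse 3 to 1.10 in WT_SE mouse 5. The coefficient of variation (CV, the SD as a percent of the mean) of normalised CPM over the 9 libraries was 9.72% for Igkc, 14.2% for Igha and 14.1% for Jchain. Other genes within 1.5 times the same mean count had median CVs of 15.3%, 14.9% and 14.4%, so the variation of these transcripts between mice was no larger than is usual at their level. Counts at this level also grew less than in proportion to depth. For 431 genes of 100 to 160 mean counts, the slope of the log summed counts on the log library total was 0.44. It was 0.997 for 3802 genes of 30 to 100 mean counts, 1.34 for 4213 genes of 10 to 30 and 1.30 for 3840 genes of 3 to 10. Less counted genes thus grew more than in proportion to depth. Igkc, Igha and Jchain lie in the range of 100 to 160 mean counts, and Iglc1 (33.2) and Ighg2c (30.3) in that of 30 to 100. Ighg2b (21.4) and Iglc3 (17.7) lie in the range of 10 to 30, and Iglc2 (9.89) and Ighm (8) in that of 3 to 10. The isotype and lambda shares given below set these genes against each other. What part this had in the spread of Igkc, Igha and Jchain or in those shares was not tested.

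Across the 9 mice, no tested relation of another transcript with Igha passed the threshold. On the log2(CPM + 1) scale, Igkc had Pearson's r = 0.62 (exact permutation p = 0.0690, adjusted over 4 relations 0.276) and Spearman's rho = 0.43 (exact permutation p = 0.2499, adjusted 0.4998). For Jchain r was 0.40 (exact permutation p = 0.293, adjusted 0.390) and rho 0.45 (p = 0.2298, adjusted 0.4998), and for Pigr r was 0.28 (p = 0.467, adjusted 0.467) and rho 0.28 (p = 0.463, adjusted 0.617). Ighm had an r of -0.42 (exact permutation p = 0.267, adjusted 0.390) and a rho of -0.15 (p = 0.708, adjusted 0.708). Without WT_EE mice 1 and 5, the libraries farthest from the median of Igha, r was 0.59 for Igkc, 0.32 for Jchain, 0.40 for Pigr and -0.54 for Ighm. Within the 7 libraries that share the commoner name ending these values were 0.65, 0.49, 0.35 and -0.38. The other name ending is that of WT_SE mice 1 and 3, which are too few for a value of their own.

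IgA was the main isotype in every library. Igha took 69.1%, 63.4%, 94.0% and 63.4% of heavy chain constant counts in WT_SE mice 1, 2, 3 and 5, and 77.6%, 62.1%, 60.6%, 78.3% and 56.8% in WT_EE mice 1 to 5. WT_SE mouse 3 stood apart, with 110 of 117 counts on Igha (95% Wilson interval 88.2% to 97.1%). The means of 72.5% ± 14.6 (SD, n = 4) and 67.1% ± 10.1 (SD, n = 5) lay within each other's SD, and the difference turned from -5.43 to 1.75 percentage points without WT_SE mouse 3.

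IgG, the main class of blood and tissue fluid, filled most of the remainder. Its share was 16.5%, 24.8%, 3.42% and 35.6% in the WT_SE libraries and 19.5%, 35.7%, 37.8%, 21.7% and 36.5% in the WT_EE libraries. WT_SE mouse 3 was again the exception, with 4 IgG counts of 117 (95% Wilson interval 1.34% to 8.46%), and the other 8 libraries of both groups covered the same range. The group means were 20.1% ± 13.6 (SD, n = 4) and 30.2% ± 8.87 (SD, n = 5). The gap of 10.2 percentage points shrank to 0.0813 points without WT_SE mice 1 and 3.

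IgM made up 5.79% ± 4.70 (SD, n = 4) in WT_SE and 2.54% ± 2.32 (SD, n = 5) in WT_EE, with the highest shares in WT_SE mice 1 (10.6%) and 2 (8.91%). IgD, which marks naive B cells, reached 3.19% and 2.97% in the same mice and 0% to 0.450% in the other 7. IgE, the class of allergy and worm infection, had 1 count, in WT_SE mouse 1 (0.532% of 188 counts). In the other libraries 0 counts of IgE allowed a share of up to 1.10% to 2.56%.

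**Figure D2:**
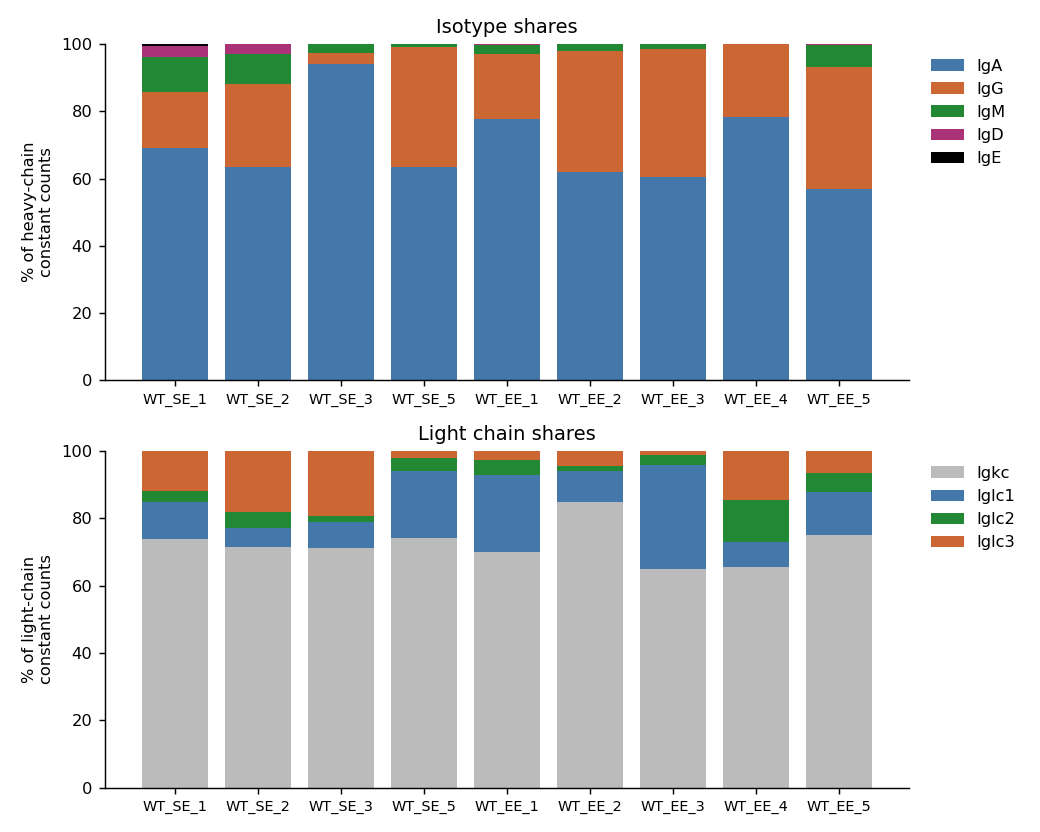
Share of each isotype among heavy chain constant counts (top) and of Igkc and each lambda gene among light chain constant counts (bottom), in percent from 0, with 1 bar per library. IgA is the largest class in all 9 libraries, WT_SE mouse 3 has almost no IgG, and the lambda genes trade places from mouse to mouse.

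Of the 31 genes, 15 had at least 4 CPM in at least 1 library and were tested among 17441 genes, and 16 were too low to be tested. None had an adjusted p below 0.05 (edgeR, Benjamini-Hochberg over all genes tested), beside 0.0401% of all genes tested (7 of 17441), while 6 had an unadjusted p below 0.05. Iglc1 and Ighg2b were called higher in WT_EE by the unadjusted p, that is 2 of 15, where 4.30% of all genes tested were called higher. Iglc3, Ighm, Ighd and Ighv1-9 were called lower, that is 4 of 15, where 3.34% of all genes tested were. DESeq2 called 0 of the 15 higher and 1 lower by the unadjusted p, and 0 by the adjusted p. Groups overlapped for all 15, where they did not overlap for 2.59% of all genes tested. The median log2 fold change over the 15 was 0.11, against 0.01 over all genes tested. A gene that passed the filter through 1 high library is more likely to differ between groups, so these counts are a description.

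Among the lambda light chains, each gene was high in some mice and low in others of the same group. Iglc1 (chromosome 16, minus strand, 19061618 to 19062071) had 20, 12, 13 and 38 counts in WT_SE mice 1, 2, 3 and 5, and 75, 13, 83, 15 and 30 counts in WT_EE mice 1 to 5. WT_EE mice 1 and 3 were the highest, and WT_EE mice 2, 4 and 5 lay within the range of the WT_SE libraries. Normalised means were 58.2 ± 31.2 CPM (SD, n = 4) and 101 ± 65.4 CPM (SD, n = 5), a log2 fold change of 0.84 with a standard error of 0.32 (edgeR, unadjusted p = 0.0128, adjusted p = 0.458). The exact permutation test of the means gave p = 0.302. The edgeR call was lost without WT_SE mouse 2 (unadjusted p = 0.0564), WT_EE mouse 1 (0.0717) or WT_EE mouse 3 (0.107), and without WT_SE mouse 5 the log2 fold change was 1.29 (0.000620). Within the 7 libraries of the commoner name ending, that is without WT_SE mice 1 and 3, the log2 fold change was 0.63 (0.134).

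Iglc3 (chromosome 16, minus strand, 19065230 to 19065681) went another way, with 22, 39, 32 and 4 counts in WT_SE and 9, 6, 3, 29 and 15 counts in WT_EE. WT_SE mouse 5 was as low as the lowest WT_EE libraries, and WT_EE mouse 4 was as high as the WT_SE ones. The log2 fold change was -1.11 with a standard error of 0.42 (edgeR, unadjusted p = 0.0127, adjusted p = 0.458), and the exact permutation p of the means was 0.190. Leaving out WT_SE mouse 2 (edgeR, unadjusted p = 0.0800) or WT_SE mouse 3 (0.0786) ended the call, and without WT_EE mouse 4 the log2 fold change was -1.77 (9.87e-05). Within the 7 libraries of the commoner name ending it was -0.86 (0.119).

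Iglc2 (chromosome 16, minus strand, 19198396 to 19200351), nearly identical to Iglc3, had 6, 10, 3 and 7 counts in WT_SE and 14, 2, 8, 25 and 14 counts in WT_EE. Its log2 fold change was 0.80 with a standard error of 0.43 (edgeR, unadjusted p = 0.0736, adjusted p = 0.689). The unadjusted p fell below 0.05 without WT_SE mouse 2 (0.0338), WT_EE mouse 2 (0.0162) or WT_EE mouse 3 (0.0285), and without WT_EE mouse 4 the log2 fold change fell to 0.31 (0.476). Within the 7 libraries of the commoner name ending it was 0.47 (0.371). Iglc1 and Iglc3 are both annotated opposite the antisense gene 2010309G21Rik, which had 0 counts, and the strand setting of the counting is not stated.

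The ratio of Iglc1 to Iglc3 counts showed the spread most plainly. It was 0.91, 0.31, 0.41 and 9.5 in WT_SE mice 1, 2, 3 and 5, and 8.33, 2.17, 27.7, 0.52 and 2.0 in WT_EE mice 1 to 5, the 27.7 resting on 3 counts of Iglc3. Each group held libraries dominated by Iglc1 and libraries with more Iglc3. Lambda as a whole was steadier, at 26.1%, 28.4%, 28.7% and 25.9% of light chain counts in WT_SE (27.3% ± 1.48, SD, n = 4) and 29.97%, 15.1%, 34.9%, 34.3% and 24.9% in WT_EE (27.8% ± 8.18, SD, n = 5). WT_EE mouse 2 was the lowest, with 21 of 139 counts (95% Wilson interval 10.1% to 21.99%).

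Ighg2c, the C57BL/6 counterpart of IgG2a (chromosome 12, minus strand, 113285325 to 113288932), had 20, 18, 0 and 52 counts in WT_SE and 24, 29, 56, 19 and 55 counts in WT_EE. WT_SE mouse 3 had none, and its floor allows up to 10.03 CPM, and WT_SE mouse 5 was as high as the highest WT_EE libraries. The means of 61.0 ± 59.0 CPM (SD, n = 4) and 91.9 ± 35.0 CPM (SD, n = 5) gave a log2 fold change of 0.55 with a standard error of 0.36 (edgeR, unadjusted p = 0.133, adjusted p = 0.743). Without WT_SE mouse 5 the log2 fold change was 1.36 (edgeR, unadjusted p = 0.000630), without WT_EE mouse 1 it was 0.72 (0.0486), without WT_SE mouse 3 it was 0.20 (0.513), and without WT_SE mice 1 and 3 it was -0.05 (0.889). Over all 9 libraries Ighg2c was called higher by limma-voom (1.43, 0.0278) and by edgeR with no filter on low counts (0.56, 0.0113).

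Ighg2b, another IgG heavy chain gene (chromosome 12, minus strand, 113302965 to 113307933), had 8, 30, 4 and 17 counts in WT_SE and 27, 32, 35, 17 and 23 counts in WT_EE. Normalised, WT_SE mice 1, 3 and 5 (20.8, 13.5 and 46.4 CPM) lay below every WT_EE library (52.4 CPM or more). WT_SE mouse 2 (83.4 CPM) lay among the highest. The normalised means were 41.0 ± 31.6 CPM (SD, n = 4) and 70.2 ± 24.8 CPM (SD, n = 5), with an exact permutation p of 0.167. The edgeR call was lost without WT_SE mouse 1 (unadjusted p = 0.143), WT_SE mouse 3 (0.140) or WT_EE mouse 2 (0.0980), and without WT_SE mouse 2 the log2 fold change was 1.31 (0.000325). Within the 7 libraries of the commoner name ending it was 0.0999 (0.751), against 0.72 with a standard error of 0.32 over all 9 (unadjusted p = 0.0294, adjusted p = 0.571). Of the remaining IgG genes, Ighg1 had 11 counts and Ighg3 had 7 in all, with 0 to 2 per library, which is at or under the floor.

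Ighm, the first class a B cell makes (chromosome 12, minus strand, 113418558 to 113422730), had 20, 18, 3 and 2 counts in WT_SE and 7, 4, 4, 0 and 14 counts in WT_EE. WT_SE mice 1 and 2 were the highest, followed by WT_EE mouse 5, and WT_SE mice 3 and 5 were as low as most of WT_EE. Its log2 fold change was -1.03 with a standard error of 0.51 (edgeR, unadjusted p = 0.0497, adjusted p = 0.651), and the exact permutation p was 0.254. The call was lost when 1 of 6 libraries was left out, with unadjusted p from edgeR of 0.303 without WT_SE mouse 1, 0.232 without WT_SE mouse 2, 0.0588, 0.0586, 0.0948 and 0.114 without WT_EE mice 1, 2, 3 and 4. The log2 fold change was -1.59 (0.00672) without WT_EE mouse 5 and -1.38 (0.00584) without WT_SE mouse 5. It was also lost with library totals as the scaling (0.0532), with immunoglobulin genes left out of it (0.0501), and within the commoner name ending (log2 fold change -0.89, 0.159). Without both WT_SE mice 1 and 2, the log2 fold change turned to 0.90 (edgeR, unadjusted p = 0.257).

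Ighd (chromosome 12, minus strand, 113406604 to 113416324) was above the floor in WT_SE mice 1 and 2 alone, with 6 counts each, and had 0 in WT_SE mice 3 and 5 and 1, 0, 0, 0 and 1 counts in WT_EE (edgeR, unadjusted p = 0.0118, adjusted p = 0.456; exact permutation p = 0.206). The call was lost without either WT_SE mouse 1 (edgeR, unadjusted p = 0.0775) or mouse 2 (0.0802). No fold is given where the WT_EE libraries are at or under the floor.

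**Figure D3:**
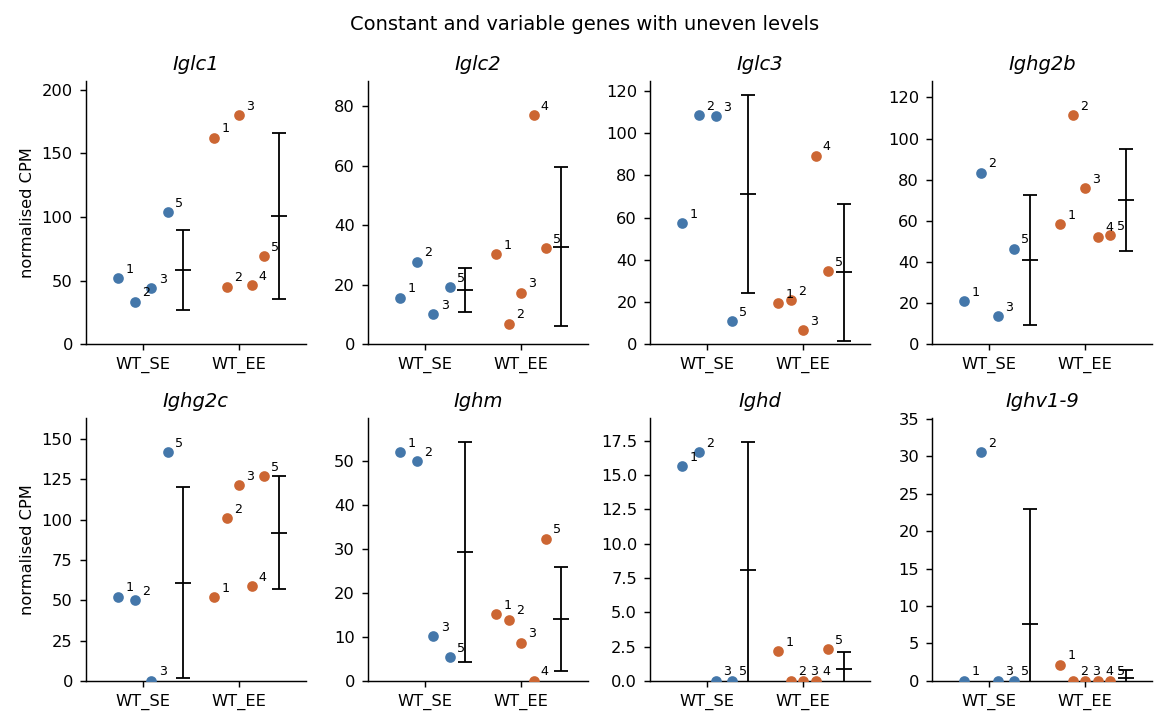
Normalised CPM (y axes, from 0, each with its own range) of the lambda constant genes, Ighg2b, Ighg2c, Ighm, Ighd and Ighv1-9 in each library, numbered by mouse, with the group mean and SD (bars cut at 0) at the right of the points. WT_SE mice 1 and 2 are highest for Ighm and Ighd, WT_SE mouse 2 holds 11 of the 12 counts of Ighv1-9, and Iglc1 and Iglc3 are high in different mice.

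These genes varied between mice far more than other genes of the same level. Over the 9 libraries the CV was 67.0% for Iglc1, 82.1% for Iglc3, 79.7% for Iglc2, 59.8% for Ighg2c, 52.9% for Ighg2b and 92.4% for Ighm. Counting error alone at the same mean counts gives 17.3%, 23.8%, 31.8%, 18.2%, 21.6% and 35.4%. Among the other genes within 1.5 times the same mean count, 0.768% had a larger CV than Iglc1 (23 of 2995), 0.620% than Iglc3 (20 of 3224), 1.49% than Iglc2 (43 of 2886), 1.26% than Ighg2c (38 of 3024), 2.56% than Ighg2b (81 of 3163) and 0.941% than Ighm (26 of 2764).

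**Figure D4:**
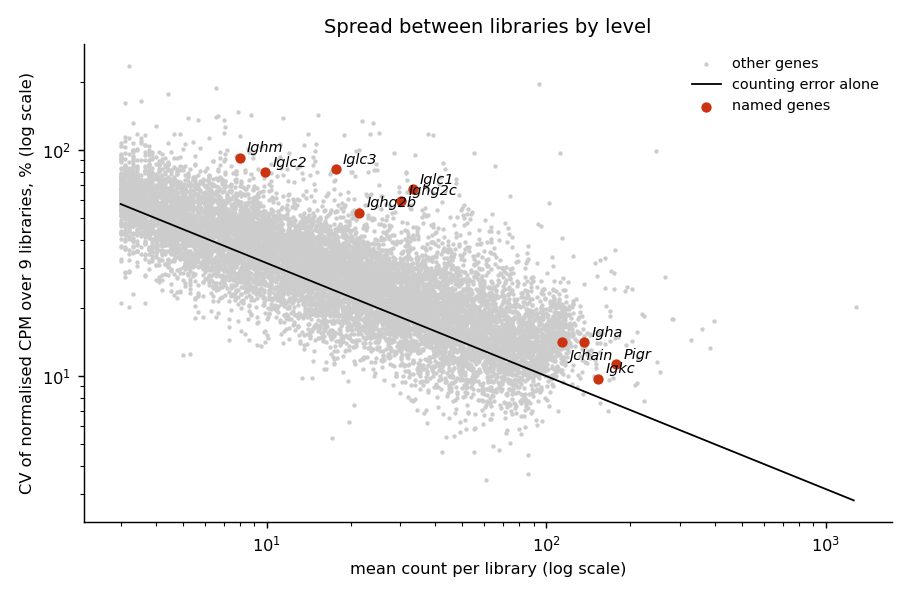
Coefficient of variation of normalised CPM over the 9 libraries (y axis, log scale) against the mean count per library (x axis, log scale) for genes with a mean of at least 3 counts, with counting error alone as a line. Igkc, Igha, Jchain and Pigr lie within the cloud of other genes (grey), between 9.72% and 14.2%, and the lambda, IgG2 and IgM genes lie along its upper edge, between 52.9% and 92.4%.

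Variable genes, which carry the antigen-binding part, were caught in few molecules. They lie far from the transcript end where reads start, and the part this had was not tested. There were 6, 12, 1 and 1 counts on them in WT_SE mice 1, 2, 3 and 5 and 7, 1, 6, 0 and 1 in WT_EE mice 1 to 5. The heavy variable gene Ighv1-9 (chromosome 12, minus strand, 114583569 to 114584002) held 12 of these 35 counts, 11 of them in WT_SE mouse 2 and 1 in WT_EE mouse 1. Its edgeR p was 0.0125 (unadjusted; adjusted p = 0.458), while the exact permutation p of the means was 0.444. It had 0 counts in every other library, so without WT_SE mouse 2 a single count is left. Iglv1, a lambda variable gene, had 4 counts in WT_EE mouse 3, which also had the most Iglc1 counts, and 1 in WT_EE mouse 5. Ighv4-1 had 4 counts over 3 libraries, Iglv3, Igkv1-99 and Igkv1-135 had 2 each, and 8 variable genes had a single count, Ighv13-2 and Igkv6-13 among them. The most counted joining genes, Igkj2 and Igkj4, had 2 counts each.

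IgM and IgD counts were read beside genes of follicular and naive B cells. Of 15 such genes tested, 0 were called higher in WT_EE and 4 lower by the unadjusted edgeR p. Over all genes tested, 4.30% were called higher and 3.34% lower. The 4 were Cr2 and Fcmr, a complement receptor and the IgM receptor of B cells, Ms4a1, which encodes CD20, and Cd79b, part of the B cell receptor. None of the 15 had an adjusted p below 0.05. Cr2 had 8, 14, 0 and 3 counts in WT_SE and 2, 0, 1, 0 and 0 in WT_EE. Fcmr had 8 and 6 counts in WT_SE mice 1 and 2 and 0 in the other 7 libraries. Ms4a1 had 9 and 6 counts in the same mice and 0 to 2 elsewhere, and its call was lost without WT_SE mouse 1 (edgeR, unadjusted p = 0.185) or mouse 2 (0.0602). Cd79b had 3 and 1 counts there and 0 elsewhere, and its call was lost without WT_SE mouse 2 (0.0564) or any 1 WT_EE mouse (0.0526 to 0.0623). These 4 B cell genes had most of their counts in WT_SE mice 1 and 2, the libraries with most Ighm and Ighd. They were picked by calls lower in WT_EE, and Fcmr and Cd79b passed the filter only through counts in these mice. Their likeness to Ighm and Ighd thus follows in part from the choice and is a description.

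Counts summed over the list were 83, 85, 27 and 24 in WT_SE mice 1, 2, 3 and 5, and 38, 24, 48, 18 and 26 in WT_EE mice 1 to 5, where Ighm plus Ighd had 26, 24, 3 and 2, and 8, 4, 4, 0 and 15 counts. Ebf1 was the most counted gene of the list in every library, with 25, 21, 16 and 11 counts in WT_SE and 17, 15, 27, 13 and 11 in WT_EE. Ebf1 and Spib were highest in WT_EE mouse 3, with 27 and 10 counts, so the sum does not follow the 4 called genes alone. Ebf1 gave 13 of the 18 counts in WT_EE mouse 4 and 25 of the 83 in WT_SE mouse 1. In some libraries the sum thus rests largely on 1 gene. Cd79a and Blk of this list were not analysed here, and Faim3 is an older symbol of Fcmr, counted once. Normalised, the list summed to 65.5 to 236 CPM in WT_SE and 55.4 to 104 CPM in WT_EE. Without WT_SE mice 1 and 2, none of the 8 B cell genes left to test was called, and 1 of the 31 antibody and J chain genes was called higher (Ighg2b, log2 fold change 1.12, edgeR, unadjusted p = 0.00605) and 0 lower. Without WT_SE mouse 1 or without WT_SE mouse 2, 2 B cell genes were called lower. Cxcl13, the chemokine that draws B cells into follicles, had 16, 26, 5 and 5 counts in WT_SE and 14, 3, 3, 0 and 6 in WT_EE (log2 fold change -1.47, standard error 0.48, edgeR, unadjusted p = 0.00409, adjusted p = 0.324), and its call was lost without WT_SE mouse 2 (0.0911). What part the amount of follicle in each tissue piece had in the IgM and IgD counts was not tested.

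**Figure D5:**
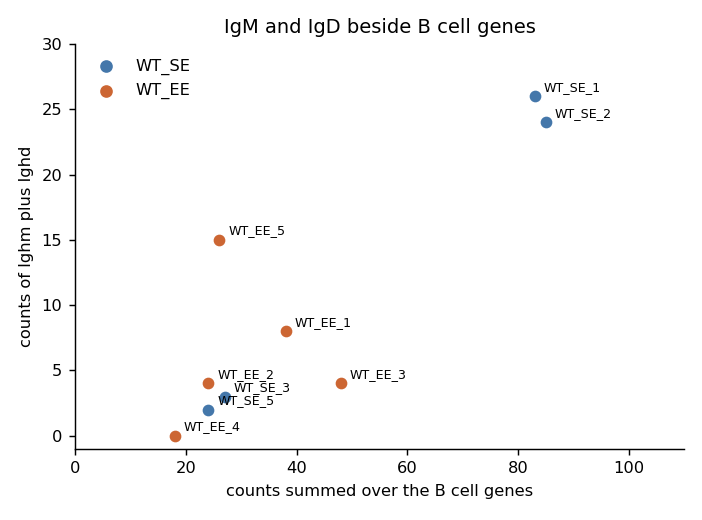
Counts of Ighm plus Ighd (y axis) against counts summed over the genes of follicular and naive B cells (x axis), 1 point per library, coloured by environment. WT_SE mice 1 and 2 lie apart at summed counts of 83 and 85, and WT_EE mouse 5 has 15 IgM and IgD counts at a sum of 26. Ebf1 is the most counted gene of the sum in every library.

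Genes of the plasma cell list were close to level between groups when summed, with the limits given at the end of this paragraph. Of 19 tested, 1 was called higher in WT_EE and 0 lower, where 4.30% of all genes tested were called higher and 3.34% lower. This was Derl3, which serves protein quality control in the endoplasmic reticulum, with 0 to 1 counts per WT_SE library and 0 to 6 per WT_EE library (edgeR, unadjusted p = 0.0202, adjusted p = 0.515). That call was lost without WT_SE mouse 1 (0.0554), WT_SE mouse 2 (0.0510) or WT_EE mouse 1 (0.0850). Xbp1, the transcription factor of secretory cells, had between 32 and 78 counts per library, both of these in WT_EE, and 35 to 52 in WT_SE (log2 fold change 0.24, standard error 0.17, edgeR, adjusted p = 0.759). Sdc1, the plasma cell surface marker CD138, which epithelium also carries, had a log2 fold change of -0.16 with a standard error of 0.19 (edgeR, adjusted p = 0.894). The 2 other genes of the list with the smallest p were Eaf2 (unadjusted p from edgeR 0.0952) and Edem2 (0.0782). The summed list ran from 1300 to 1662 CPM in WT_SE and from 1489 to 1598 CPM in WT_EE, its median log2 fold change was 0.07, and the defining marker Mzb1 was not analysed here. Much of that sum came from Sec11c, Herpud1 and Ssr4, with 45 to 120 counts per library. Tnfrsf17, Irf4 and Pou2af1 had 0 to 6 counts per library, so the sum says little about them.

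Genes of homing and survival of plasma cells held 2 higher calls and 0 lower among 14 tested. Over all genes tested, 4.30% were called higher and 3.34% lower. Ccl28, a colon epithelial chemokine that attracts IgA plasma cells, had 17, 8, 3 and 15 counts in WT_SE and 24, 9, 22, 21 and 20 in WT_EE. Its log2 fold change was 0.68 with a standard error of 0.31 (edgeR, unadjusted p = 0.0357, adjusted p = 0.600), and the call was lost without WT_SE mouse 2 (0.101), WT_SE mouse 3 (0.151), WT_EE mouse 1 (0.0572) or WT_EE mouse 4 (0.0843). Aldh1a2, an enzyme that makes retinoic acid, a signal for gut homing, had 4, 4, 2 and 8 counts in WT_SE and 7, 19, 10, 10 and 16 in WT_EE (log2 fold change 1.32, standard error 0.43, edgeR, unadjusted p = 0.00417, adjusted p = 0.324). Its call held without each single library and was lost without WT_SE mice 1 and 3 (0.0681) or WT_SE mice 1 and 2 (0.0529). Ccl25, the small intestinal counterpart of Ccl28, had a log2 fold change of -0.57 with a standard error of 0.30 (edgeR, unadjusted p = 0.0680, adjusted p = 0.673).

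No gene was called among 9 of germinal centres and class switching, 7 of antibody transport and Fc receptors, and 11 of T cells. Over all genes tested, 4.30% were called higher and 3.34% lower. Summed over the germinal centre list, whose genes are also used by other cells, the range was 196 to 240 CPM in WT_SE and 243 to 284 CPM in WT_EE, and no test was run on these sums, whose ranges did not overlap. Bcl6, Basp1 and Apex1 had the smallest p there, with log2 fold changes of 0.41, 0.34 and 0.42 and standard errors of 0.28, 0.25 and 0.39. Of the transport list besides Pigr, Fcgrt, the neonatal Fc receptor that protects IgG from breakdown, had a log2 fold change of -0.21 with a standard error of 0.27, and the IgG receptors Fcgr3 and Fcgr2b had -0.26 and 0.25 with standard errors of 0.43 and 0.60. Among 7 genes of follicular stroma and T cell help, Cxcl13 was the single call, and Ltbr and Cd40 followed with unadjusted p from edgeR of 0.607 and 0.683. For the T cell list, Cd3g, Thy1 and Trbc2 had the smallest p, with unadjusted values from edgeR of 0.128, 0.156 and 0.195.

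The tissue pieces differed in other ways that were read beside the antibody genes. For the calls below, the shares over all genes tested were 4.30% higher and 3.34% lower. Epithelial genes summed to 3212 to 4026 CPM in WT_SE and 3238 to 4306 CPM in WT_EE, with 1 of 10 called higher (Lgals4, log2 fold change 0.30, standard error 0.13, edgeR, adjusted p = 0.557), a call lost without WT_SE mouse 1 (unadjusted p = 0.121) or WT_EE mouse 4 (0.0616). Muc2 (unadjusted p from edgeR 0.0777) and Epcam (0.173) followed. Smooth muscle genes summed to 2354 to 3006 and 2336 to 4165 CPM, with 4 of 10 called higher (Smtn, Des, Lmod1 and Acta2). All 4 calls were lost without WT_SE mouse 2 (edgeR, unadjusted p = 0.0617 to 0.143), WT_SE mouse 3 (0.0554 to 0.109) or WT_EE mouse 2 (0.0735 to 0.192). Fat genes summed to 181 to 1063 and 284 to 611 CPM, with 1 of 9 called lower (Plin1, which had 25 counts in WT_SE mouse 1 and 0 to 7 elsewhere), and without that mouse the call was lost (log2 fold change 0.46, edgeR, unadjusted p = 0.644). Adipoq had 70 counts in WT_SE mouse 1, 15 in WT_SE mouse 3, 29 in WT_EE mouse 3 and 0 to 9 elsewhere, and Lep had 6 counts in WT_SE mouse 1 and 0 to 1 elsewhere. Genes that mark position along the colon summed to 396 to 911 and 293 to 715 CPM, with 1 of 7 called lower (Hoxd11), a call lost without WT_SE mouse 2 (log2 fold change -0.57, edgeR, unadjusted p = 0.151). Hoxd10 had 2, 22, 8 and 0 counts in WT_SE and 5, 0, 12, 0 and 2 in WT_EE. Slc10a2, a bile acid transporter, had 26, 103, 110 and 16 counts in WT_SE and 107, 3, 117, 4 and 10 in WT_EE. The part of tissue make-up and position in the antibody counts was not tested.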

How the data were processed

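The authors made 3′ messenger RNA libraries (Lexogen QuantSeq FWD) from 9 colon pieces and deposited counts of molecules on each gene for each mouse, whole and not normalised. Per the labels' processing notes, fastp 0.20.0, STAR 2.7.0f, Subread featureCounts 1.6.0, UMI-tools and GRCm38.p6 were used. The strand setting and the treatment of reads that map to several genes are not given in the sources used here. Biotypes and positions came from GENCODE mouse release M21, which held 22256 of 22262 genes, and sequences from its transcripts.

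Counts were fitted with edgeR 4.0.16 in R 4.3.3 (TMM, quasi-likelihood F test, environment as the only term) on genes that reached 4 CPM in 1 or more libraries, with Benjamini-Hochberg adjustment over all genes tested. DESeq2 1.42.0 and limma 3.58.1 were alternatives. A gene is called at an unadjusted p below 0.05, the limit the study used. For single genes, two-sided exact permutation tests were also run over the 126 ways to part the libraries (smallest p 0.00794), and relations by two-sided exact permutation of pairings. Python 3.11.15, numpy 2.4.6, pandas 2.3.3, scipy 1.17.1 and matplotlib 3.10.9 were used. The steps were tested on simulated data. Each library is 1 mouse.

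The members, gene lists and tests were chosen with earlier results of these data known, and calls of Iglc3, Ighg2b and Cr2 were among those results. Named are all constant genes, Jchain, Pigr, the 3 most counted variable genes of each locus, every called member, the 3 genes of smallest p per list, and the 10 genes most like the summed members. Other named genes were chosen after their values were seen. The relation of 1 further gene with Igha is not reported here.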

Additional observations from a re-analysis of the deposited data

Results flagged for a closer look

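In 54 groups of 4 or 5 libraries looked at, 7 values lay far from the others of their group by Dixon's criterion. A rate of 1 in 20 would give 2.7, but it presumes continuous values and independent groups. Many values here are counts near 0, and shares and totals are built from the same counts, so 7 cannot be weighed against 2.7. In WT_EE mouse 1, Igkc had 496 CPM (379 to 411 CPM in the other 4 WT_EE libraries) and the 31 genes took 0.167% of counts (0.137% to 0.143%). In WT_SE mouse 2, Ighv1-9 had 30.6 CPM and no count in the other WT_SE libraries. The remaining 4 rest on 1 to 4 counts. They are Ighg1 at 5.21 CPM and an IgE share of 0.532% in WT_SE mouse 1, Ighv1-9 at 2.17 CPM in WT_EE mouse 1, and Iglv1 at 8.67 CPM in WT_EE mouse 3, where the others had 0 to 2.31 CPM.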

How the results depend on the processing

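The number of the 31 genes called higher in WT_EE (2) was 5 with no filter on low counts, 1 with edgeR's filterByExpr, 0 with DESeq2, 3 with limma-voom, 1 with the ending of the library name as a covariate, 1 without WT_SE mice 1 and 3 (the rarer ending), 1 without WT_SE mice 1 and 2 (an alternative chosen after seeing the data), and 0 at an unadjusted p below 0.01. It was 1 to 3 when each mouse was left out in turn. The number called lower (4) was 0 with filterByExpr, 1 with DESeq2, 0 with limma-voom, 2 with the ending as a covariate, 2 without the rarer ending, 0 without WT_SE mice 1 and 2, 0 at p below 0.01, and 0 to 4 when each mouse was left out. Adjusted p-values below 0.05 numbered 2 with no filter (Iglc1 and Iglc3) and 2 with the mouse number as a block (the same genes), against 0 otherwise.

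With the block, 3 genes were called higher (Iglc1, Ighg2b and Ighg2c) and 1 lower (Iglc3), and the log2 fold change of Iglc2 was 0.30. Same-numbered mice of the 2 environments are different animals. Their deviations correlated by -0.02, 0.05, 0.11 and 0.13, and 0 of 4 correlated best with their own number. No pairing by number was seen in these values, which rest on 4 pairs of unlike tissue pieces. Whether same-numbered mice share more than the number was not otherwise tested.

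Without the rarer ending, the IgG gap of 10.2 points was 0.0813, the IgA gap of -5.43 points was 3.67, and the gap of the total, 0.0112 points, was -6.79e-05. The IgA gap ran from -8.47 to 1.75, and the lambda gap of 0.567 points ran from -1.21 to 3.75 as each mouse was left out. Signs turned for Ighm (0.90 without WT_SE mice 1 and 2), for Ighg2c (-0.0558 with the ending as a covariate, -0.0450 without the rarer ending), for Jchain (-0.0912 to 0.0939 when each mouse was left out, and a permutation p of 0.960 scaled without immunoglobulin genes) and for Pigr, which had -0.0263 with upper quartile scaling, -0.00310 with limma-voom, -0.0566 with the block, -0.0128 with the ending, -0.00352 without the rarer ending, -0.0408 without WT_SE mice 1 and 2, and -0.0564 to 0.0896 when each mouse was left out. The cause was not tested. Light chain shares from variable genes rest on 0 to 5 counts per library and are not given, and rarefaction of variable genes was not run.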

Other observations

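Among 8486 genes with a mean of at least 10 counts, those whose log2 CPM over the 9 libraries was most like the sum of the 31 genes were Pla2g7 (Pearson's r = 0.97), Gm37423 (0.94), Igsf3 (0.93), Col27a1 (0.93), Lman2l (0.93), Rassf1 (0.92), Taf1d (0.92), Gm43323 (0.91), Gm38042 (0.91) and B230216N24Rik (0.90). These are the highest of 8486 values over 9 libraries that share their depth and tissue make-up, and are given as a description. The sum itself ran from 1215 CPM in WT_SE mouse 3 to 1645 CPM in WT_EE mouse 1.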
